A study of Mus musculus with 42 samples.

Results

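Gpnmb (ENSMUSG00000029816) is 1 of the 54532 genes in the count and FPKM tables of 42 mouse kidneys, and it was followed here through all 14 groups of the series. It was chosen by the values of its difference between kidneys without Tsc2 and control kidneys, in these same libraries, so that contrast is described without a test. The tests below concern the other contrasts: loss of Tfeb on top of Tsc2, loss of Tfeb alone, and rapamycin. FPKM are fragments scaled to gene length and to library depth, as computed by the authors.

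Gpnmb encodes glycoprotein nmb, also called osteoactivin, a single-pass membrane glycoprotein of lysosomes, melanosomes and the cell surface, whose outer part can be released by the metalloprotease ADAM10. It is strongly expressed by osteoclasts, melanocytes and lipid-laden macrophages, and is a known transcriptional target of the MiT/TFE factors (MITF, TFEB, TFE3, TFEC), which control lysosomal genes. TSC2 is part of the complex that restrains the kinase complex mTORC1, rapamycin inhibits mTORC1, and TFEB is held in the cytoplasm when mTORC1 phosphorylates it with the help of folliculin and the Rag GTPases. In TSC-deficient cells, however, the paper describes TFEB as underphosphorylated and nuclear although mTORC1 activity is high. There, it reports, rapamycin raised the phosphorylation of TFEB and moved it to the cytoplasm. Gpnmb is used as a marker of cells that have lost TSC function.

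All mice were on a C57BL/6 background, each group had 3 samples labelled as biological replicates, and whole kidney RNA was sequenced after poly-A selection with a kit that does not mark strand. In the CaggCreERT2 cohort (4 groups, 12 kidneys, age P30), a tamoxifen-inducible Cre active throughout the body had been switched on through the milk of injected mothers, and the groups were control (labelled wild type), Tsc2 KO, Tfeb KO and the double knockout of Tsc2 and Tfeb (DKO). In the untreated KspCre cohort (4 groups, 12 kidneys, age P50), the cadherin 16 promoter drove Cre in tubular epithelium only, and the same 4 genotypes were sampled. In the treated KspCre cohort (6 groups, 18 kidneys, age P50), control, Tsc2 KO and DKO mice received vehicle or rapamycin at 1 mg/kg by intraperitoneal injection, 3 times a week from P25 for 11 injections. Every knockout deletes a floxed allele where Cre was active, and cells without Cre keep the gene, and controls are labelled wild type. For the CaggCreERT2 sequencing the study describes them as Cre-positive animals with intact Tsc2 that were exposed to tamoxifen, and for KspCre as Cre-negative.

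Libraries held 16047699 to 20865587 counted reads in the CaggCreERT2 cohort, 14926050 to 20541625 in the untreated KspCre cohort and 15104557 to 22807605 in the treated one. Of the targeted genes, mean Tsc2 was 10.3 FPKM in CaggCreERT2 control and 4.25 in Tsc2 KO kidneys, and mean Tfeb was 7.54 FPKM in Tsc2 KO and 2.75 in DKO kidneys. Without rapamycin, DKO libraries kept more Tsc2 than Tsc2 KO libraries in each cohort, with no overlap. The ranges were 4.82 to 5.64 against 4.06 to 4.55 FPKM in CaggCreERT2 kidneys. They were 5.17 to 5.81 against 3.54 to 4.37 FPKM in untreated and 5.53 to 6.41 against 3.80 to 4.47 FPKM in vehicle-treated KspCre kidneys. In untreated KspCre kidneys Tfeb was at 5.85 to 6.24 FPKM in control, 4.32 to 5.25 in Tfeb KO and 2.65 to 4.09 in DKO libraries, which do not overlap, while the Tsc2 KO libraries (3.66 to 6.12 FPKM) overlapped all of them. For 4 CaggCreERT2 libraries the count table and the FPKM table disagree on the name, and the FPKM naming was followed. The Xist level differed between libraries of the CaggCreERT2 groups, with Tfeb KO libraries all female, control libraries all male and the other groups mixed. Transcripts of the adrenal cortex, which lies against the kidney, were present in 4 vehicle libraries (Tsc2 KO 1 and 2, DKO 1 and 2) and in CaggCreERT2 Tfeb KO 1 and 2, and untreated KspCre DKO 1 stood apart by its macrophage and T cell transcripts. The tests of Gpnmb in the KspCre cohorts that rest on the adrenal vehicle libraries or on DKO 1 are given with and without them, while the calls of other genes were not repeated without them.

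In the annotation of the files Gpnmb lies on the plus strand of chromosome 6 at 49036546 to 49070929 (mm10), with a gene length of 6514 bases in the files. The promoter is shown because the gene is described as a target of factors that bind E-box motifs, and because its level moved together over 3 cohorts. From 250 bases before the RefSeq start (49036518, which is upstream of the start in the files' annotation) to 15 bases into the transcript, the RefSeq sequence of GRCm38.p6 at chr6:49036268-49036532, plus strand, reads as below, with a TGACTCA element, the letters of an AP-1 site, in capitals.
Gpnmb promoter: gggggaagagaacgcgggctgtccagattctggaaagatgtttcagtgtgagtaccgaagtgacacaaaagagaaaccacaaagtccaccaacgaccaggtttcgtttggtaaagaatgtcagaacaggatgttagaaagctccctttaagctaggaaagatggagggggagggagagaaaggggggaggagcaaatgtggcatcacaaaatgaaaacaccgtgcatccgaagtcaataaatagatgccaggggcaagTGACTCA
The TGACTCA element lies at 49036526 to 49036532, 8 bases after the RefSeq start, and a match to these letters on either strand occurs in 5.20% of the 32851 RefSeq promoter windows of 300 bases. Of the E-box letters searched on both strands, CACGTG (in 7.15% of windows) and CATGTG (in 14.2%) are not in the 300 bases around the Gpnmb start, while the loose pattern CANNTG, which overlaps both, occurs at 2 positions and is found in 72.3% of all windows. These are matches of letters in 1 window.

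Gpnmb was at the edge of detection in every CaggCreERT2 kidney that kept Tsc2 and far higher in those that had lost it. The control libraries held 0.0358, 0.0235 and 0.0349 FPKM (4, 3 and 4 reads). In the Tfeb KO libraries the level was 0.0533, 0.0703 and 0.00921 FPKM (5, 7 and 1 reads). Both groups thus rested on single reads, and their ranges overlapped. The Tsc2 KO libraries held 60.2, 29.1 and 14.8 FPKM (7703, 3048 and 1637 reads), with replicate 1 well above the others. In DKO kidneys it was 3.96, 3.67 and 1.53 FPKM (467, 355 and 158 reads), so that the 4 groups formed 3 separate levels: Tsc2 KO above DKO, and DKO above the overlapping Tfeb KO and control groups. In bulk tissue a lower level can come from fewer cells of a type or from less RNA in each cell, and these cannot be told apart.

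The same genotypes under KspCre gave a smaller range. Control libraries held 0.0393, 0.0297 and 0.0171 FPKM (4, 3 and 2 reads), and Tfeb KO libraries 0.0365, 0.0117 and 0.0329 FPKM (4, 1 and 4 reads). The Tsc2 KO libraries held 5.86, 8.82 and 4.50 FPKM (698, 978 and 597 reads). The spread within Tsc2 KO was narrower than in the CaggCreERT2 cohort. DKO libraries ran from 4.60 through 1.80 to 0.502 FPKM (669, 197 and 54 reads), and DKO 1 lay within the Tsc2 KO range while the other two lay below it.

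In the treated cohort Gpnmb was high in 1 group alone. Tsc2 KO mice given vehicle had 18.7, 17.0 and 18.4 FPKM (2407, 2512 and 2355 reads), the tightest replicates of any group with a high level. Under rapamycin the Tsc2 KO libraries held 0.102, 0.164 and 0.241 FPKM (12, 16 and 25 reads). No rapamycin-treated Tsc2 KO library came within reach of a vehicle-treated one. DKO libraries given vehicle held 0.219, 0.544 and 1.19 FPKM (25, 71 and 168 reads), and those given rapamycin 0.113, 0.0138 and 0.00743 FPKM (13, 2 and 1 reads). Control libraries held 0.0645, 0.188 and 0.0284 FPKM under vehicle (8, 21 and 3 reads) and 0.0178, 0.0150 and 0.440 FPKM under rapamycin (2, 2 and 56 reads). The single control library with 56 reads, Rapamycin 3, was above all rapamycin-treated Tsc2 KO libraries. Below the Tsc2 KO vehicle group, every neighbouring pair of groups in the order DKO vehicle, Tsc2 KO rapamycin, control rapamycin, control vehicle and DKO rapamycin overlapped.

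**Figure D1:**
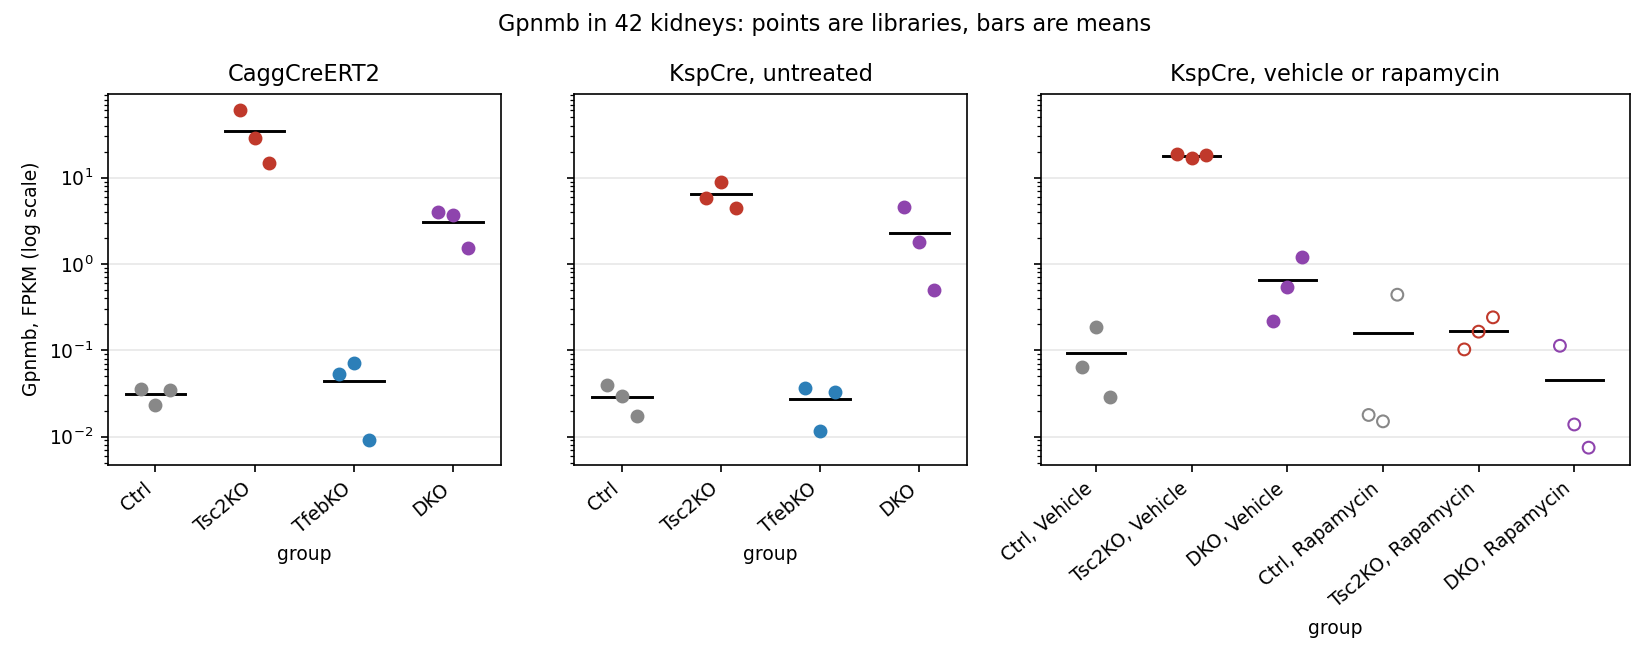
Gpnmb in each of the 42 kidneys (FPKM, log axis) by genotype and treatment in the 3 cohorts; points are libraries, open points are rapamycin-treated, and bars are means of 3 libraries. Tsc2 KO kidneys without rapamycin lie between 4.50 and 60.2 FPKM. All DKO kidneys lie below this range except untreated KspCre DKO 1 (4.60 FPKM). The rapamycin-treated Tsc2 KO kidneys lie at 0.102 to 0.241 FPKM. All control libraries are below 0.102 FPKM except control vehicle 2 (0.188) and control Rapamycin 3 (0.440).

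As group means, Gpnmb reached 34.7 ± 23.2 FPKM (SD, n = 3) in CaggCreERT2 Tsc2 KO, 6.39 ± 2.21 FPKM (SD, n = 3) in untreated KspCre Tsc2 KO and 18.01 ± 0.903 FPKM (SD, n = 3) in vehicle-treated KspCre Tsc2 KO kidneys. By mean FPKM it ranked 1515, 6036 and 2579 among the 22046 protein-coding genes of those groups, against 15652 in CaggCreERT2 control kidneys. Between Tsc2 KO and control, the mean FPKM differed 1106-fold in the CaggCreERT2 cohort, 223-fold in the untreated and 193-fold in the vehicle-treated KspCre cohort. These ratios rest on few control reads: the reads per total gave 1239-fold (95% counting interval 692 to 2483) from 11 control reads, 238-fold (125 to 520) from 9 and 232-fold (164 to 339) from 32. The intervals cover counting error only. Single libraries moved the fitted log2 fold changes, from 10.14 to 9.47 without CaggCreERT2 Tsc2 KO 1 and from 7.57 to 8.53 without control vehicle 2, which held 21 of the 32 control reads.

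The name of strongest marker held in 1 cohort of the 3. In CaggCreERT2 kidneys the fitted log2 fold change of Gpnmb, 10.14, was the largest of 14456 protein-coding genes tested, followed by Nyx, which encodes nyctalopin, at 8.24. In untreated KspCre kidneys its log2 fold change of 7.76 ranked 3 of 14434, after Matn1 (a cartilage matrix protein) and Eef1a2 (a translation elongation factor), both of which had 0 reads in all 3 control libraries, so that their fitted values depend on the prior count. In the vehicle-treated cohort 7.57 ranked 21 of 14623. Of the 20 genes above it there, 15 had 0 control reads, and among the 20 are the adrenal steroid genes Cyp21a1, Cyp11b1, Cyp11b2, Cyp11a1 and Nr5a1, which come with the adrenal cortex transcripts in 2 of the 3 Tsc2 KO vehicle libraries. Just below Gpnmb came Cdc25c (7.72) in the untreated KspCre cohort and Mgarp (7.44) in the treated one.

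Loss of Tfeb lowered Gpnmb in CaggCreERT2 kidneys without Tsc2. From 34.7 ± 23.2 FPKM (SD, n = 3) in Tsc2 KO it was at 3.05 ± 1.33 FPKM (SD, n = 3) in DKO, which is 8.79% of the Tsc2 KO mean, a log2 fold change of -3.53 (95% interval -4.55 to -2.52, edgeR quasi-likelihood adjusted p = 0.00116). Of all genes tested, 7% were called here in either direction, which took an adjusted p up to 0.05 with 5 FPKM or more in the mean of 1 group, and 9.92% without the FPKM minimum. Among protein-coding genes it had the 11th lowest log2 fold change of this comparison, a place favoured by the choice of the gene. The DKO kidneys remained above control, at 0.0314 ± 0.00685 FPKM (SD, n = 3), by 6.61 on the log2 scale (95% interval 4.94 to 8.27, adjusted p = 0.000217 by edgeR), against a background of 10.2% of genes called without an FPKM minimum. The Tsc2 KO libraries of the first test, and those of every test against Tsc2 KO without rapamycin below, are libraries by which Gpnmb was chosen, and these tests share them. The control libraries were the other side of that choice, so the tests against control also draw on values used in it. With the library names of the count table, the first difference was -4.36 (adjusted p = 0.0741) and the second 5.78 (adjusted p = 0.467), so both calls depend on the names. The library called DKO 3 in the count table (Tfeb KO 3 here) had 10.2 FPKM of Tsc2 and 1 read of Gpnmb, and the one called Tfeb KO 3 there (DKO 1 here) had 5.26 FPKM of Tsc2 and 467 reads of Gpnmb, beside 9.05 and 9.34 FPKM of Tsc2 in the Tfeb KO libraries named alike in both tables. Without Tsc2 KO 1 the difference between DKO and Tsc2 KO was -2.87 (adjusted p = 0.00260), and with the Xist level as a covariate it was -3.85 (adjusted p = 0.00290), and that between DKO and control 6.74 (adjusted p = 0.000362).

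In untreated KspCre kidneys the difference between DKO and Tsc2 KO did not pass the test. The mean was 2.30 ± 2.09 FPKM (SD, n = 3) in DKO, 36.0% of the Tsc2 KO mean, with a log2 fold change of -1.46 (95% interval -2.68 to -0.24, adjusted p = 0.308 by edgeR, unadjusted p = 0.0228), in a comparison that called 0.132% of genes. Without DKO 1, the library with high macrophage transcripts, the log2 fold change was -2.47 (adjusted p = 0.0810). It was smaller without DKO 3 (-0.99, adjusted p = 0.360 by edgeR) or Tsc2 KO 2 (-1.16, adjusted p = 0.540 by edgeR). Tfeb itself was not evenly reduced here: it stood at 4.09, 3.08 and 2.65 FPKM in DKO 1, 2 and 3 and at 3.96, 6.12 and 3.66 FPKM in the Tsc2 KO libraries. DKO kidneys were higher than control kidneys by 6.30 on the log2 scale (95% interval 4.46 to 8.14, adjusted p = 0.00490 by edgeR), where 3.1% of genes were called without an FPKM minimum, and by 5.29 without DKO 1 (adjusted p = 0.00308).

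Vehicle-treated DKO kidneys had 0.651 ± 0.495 FPKM (SD, n = 3), 3.62% of the level in vehicle-treated Tsc2 KO kidneys. The log2 fold change was -4.77 (95% interval -6.35 to -3.19, adjusted p = 0.000294 by edgeR), in a comparison that called 13.8% of genes. Without the 4 vehicle libraries that held adrenal cortex transcripts, which leaves 1 library in each of these groups with the spread taken from the other groups, it was -3.94 (adjusted p = 0.191). The libraries left had 18.4 and 1.19 FPKM, and without DKO vehicle 3 the log2 fold change was -5.55 (adjusted p = 0.000787). The difference from vehicle-treated controls, 2.80 on the log2 scale (95% interval 0.91 to 4.69), missed the threshold (adjusted p = 0.0718 by edgeR), where 6.01% of genes were called without an FPKM minimum. It was 3.64 without the adrenal libraries, and 2.02 to 3.76 with 1 library at a time left out.

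Loss of Tfeb alone left Gpnmb at a few reads. In the CaggCreERT2 cohort the log2 fold change against control was 0.48 (95% interval -2.77 to 3.74, adjusted p = 0.960 by edgeR; 0.0184% of genes called without an FPKM minimum). It was 1.17 with the Xist level as a covariate (adjusted p = 0.977) and 5.47 with the names of the count table (adjusted p = 0.846). In the KspCre cohort it was 0.00 (95% interval -2.45 to 2.45, adjusted p = 1.00 by edgeR). In that comparison edgeR called 0 of 16631 genes (0%), with 1424 at an unadjusted p under 0.05, and DESeq2 called 13. At 9 to 13 reads per group, changes of several-fold in either direction are within these intervals.

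Rapamycin lowered Gpnmb in Tsc2 KO kidneys. The mean went from 18.01 ± 0.903 FPKM (SD, n = 3) under vehicle to 0.169 ± 0.0693 FPKM (SD, n = 3), which is 0.938% of the vehicle mean. The log2 fold change was -6.74 (95% interval -8.56 to -4.92, adjusted p = 2.97e-05 by edgeR), in a comparison that called 18.1% of genes (29.4% without the FPKM minimum). This log2 fold change was the 16th lowest among protein-coding genes, a place favoured by the choice of the gene. Without the libraries holding adrenal cortex transcripts, which leaves Tsc2 KO vehicle 3 (18.4 FPKM) as the 1 vehicle library and assumes that it varies like the other groups, the log2 fold change was -6.76. Rapamycin-treated Tsc2 KO and control kidneys differed by 0.07 on the log2 scale (95% interval -1.94 to 2.08, adjusted p = 0.981 by edgeR; 0.634% of genes called without an FPKM minimum). That value rests on control Rapamycin 3, without which it was 3.29 (adjusted p = 0.378). Mean Tsc2 was 4.06 FPKM in vehicle-treated and 5.70 FPKM in rapamycin-treated Tsc2 KO kidneys, a log2 fold change of 0.49 (adjusted p = 0.00199 by edgeR). These groups thus also differed in the share of Tsc2 transcript that remained, as DKO and Tsc2 KO kidneys without rapamycin did. The part of remaining Tsc2 in the rapamycin and DKO results was not tested.

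In DKO kidneys rapamycin took Gpnmb from 0.651 ± 0.495 to 0.0446 ± 0.0590 FPKM (SD, n = 3 each). The log2 fold change was -3.96 (95% interval -6.08 to -1.85, adjusted p = 0.0302 by edgeR), where 5.57% of genes were called without an FPKM minimum. The call was lost without DKO vehicle 3 (-3.18, adjusted p = 0.110), DKO rapamycin 2 (-3.51, adjusted p = 0.142) or DKO rapamycin 3 (-3.46, adjusted p = 0.124), was kept without DKO rapamycin 1 at -5.81 (adjusted p = 0.0348), and was lost without the 4 adrenal libraries (-4.81, adjusted p = 0.101). The effect of rapamycin in DKO minus that in Tsc2 KO was 2.77 on the log2 scale (95% interval -0.52 to 6.06, adjusted p = 0.321 by edgeR; 6.95% of genes called without an FPKM minimum), so a difference between the genotypes was not detected. It was 0.92 without DKO rapamycin 1 (adjusted p = 0.906) and 1.95 without the adrenal libraries (adjusted p = 0.790).

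The genetic and the drug treatment were also set against each other. Vehicle-treated DKO kidneys, at 0.219 to 1.19 FPKM, overlapped rapamycin-treated Tsc2 KO kidneys, at 0.102 to 0.241 FPKM. The log2 fold change of 1.97 (95% interval 0.22 to 3.72) did not pass after adjustment (adjusted p = 0.206 by edgeR, unadjusted p = 0.0301; 1.27% of genes called without an FPKM minimum). It was 2.82 without the adrenal libraries, and 1.19 to 2.36 with 1 library at a time left out. With both, the DKO rapamycin kidneys were set against Tsc2 KO rapamycin kidneys (log2 fold change -1.998, 95% interval -4.49 to 0.49, adjusted p = 0.589 by edgeR; 0.305% of genes called). With 1 library at a time left out, the DKO rapamycin kidneys differed from them by -3.85 to -1.49. Against rapamycin-treated controls they differed by -1.93 (95% interval -4.38 to 0.53, adjusted p = 1.00 by edgeR; 0.0176% of genes called), a value set by the same control library, without which it was 1.29. In controls rapamycin itself gave 0.76 (95% interval -1.41 to 2.94, adjusted p = 0.787 by edgeR; 0.0294% of genes called), and -2.45 without that library.

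**Figure D2:**
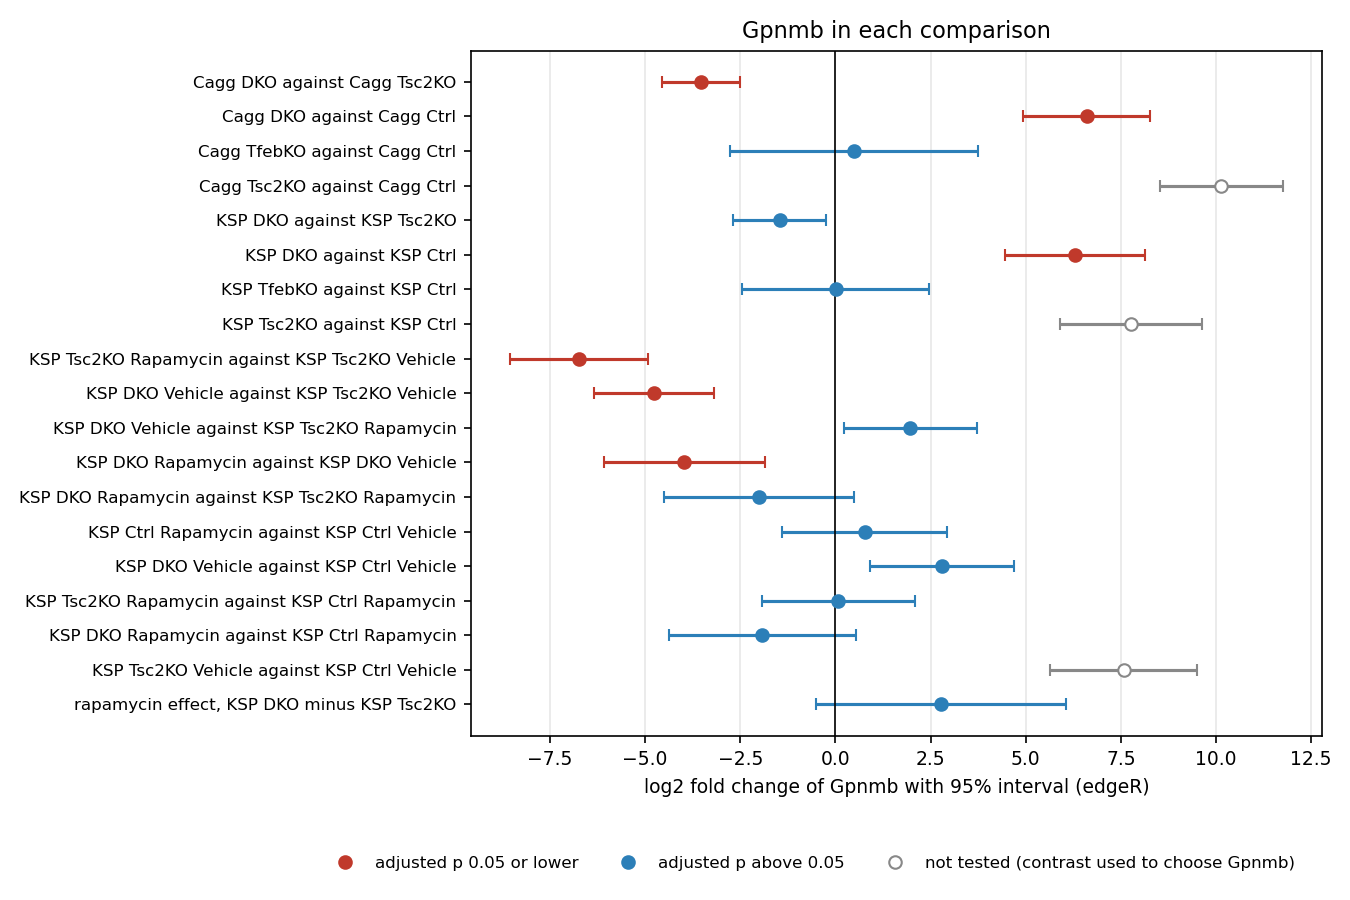
Log2 fold change of Gpnmb with its 95% interval in each comparison (edgeR, 3 libraries a group); filled red points passed an adjusted p of 0.05, blue points did not, and open grey points are the contrasts that chose the gene and carry no test. The fall under rapamycin in Tsc2 KO kidneys (-6.74) and that in DKO vehicle kidneys (-4.77) are both taken against the Tsc2 KO vehicle libraries. Set against each other directly, DKO vehicle and Tsc2 KO rapamycin kidneys differ by 1.97 (95% interval 0.22 to 3.72), which did not pass after adjustment.

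Genes whose level followed Gpnmb most closely from library to library were ranked by Pearson's r of log2 CPM (counts scaled to library size), over protein-coding genes with a mean of at least 1 FPKM in 1 group. Libraries of a group share their genotype, so r mainly holds the differences between groups and is given as a description. In the CaggCreERT2 cohort (12 libraries) the leading genes were Lmna (lamin A/C of the nuclear envelope, r = 0.991), Tifa, Vat1, Tes, Panx1 (a channel of the plasma membrane), Lrrc20, Sars (seryl-tRNA synthetase), Bspry, Mvp (the major vault protein) and Mapkapk2 (r = 0.986). In untreated KspCre kidneys (12 libraries) they included the lysosomal protease Ctsd (r = 0.975), Rbm38, Aldh18a1 (an enzyme of proline synthesis), Ttc39a, Meltf (melanotransferrin), Gdpd1, Slc35f6, Rhou (a small GTPase) and Vat1 (r = 0.964). In the treated cohort (18 libraries) they were S100a14 (r = 0.951), Epb41l2, Ets2 (a transcription factor), Aldh18a1, Arl4a, Spsb1, Rhou, Rdh11, Sowahc and Slc38a4 (r = 0.937). A value of r above 0.9 was reached by 635 genes in the CaggCreERT2, 257 in the untreated and 98 in the treated KspCre cohort, so many genes share this pattern.

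Only 3 genes were among the 100 most like Gpnmb in all 3 cohorts: Vat1 (ranks 3, 10 and 46), Tmem43 (86, 81 and 63) and Rhou (91, 9 and 7). Vat1 encodes a vesicle amine transport protein. It stood at 26.4 to 28.5 FPKM in CaggCreERT2 control, 89.0 to 141 in Tsc2 KO and 65.9 to 82.6 in DKO kidneys, and at 77.2 to 106 FPKM in vehicle-treated against 20.2 to 25.1 FPKM in rapamycin-treated KspCre Tsc2 KO kidneys. Tmem43, a protein of the inner nuclear membrane, was at 10.6 to 11.4 FPKM in CaggCreERT2 control and 15.9 to 22.3 FPKM in Tsc2 KO kidneys. Rhou was at 28.1 to 34.4 FPKM in vehicle-treated Tsc2 KO, 7.45 to 9.06 FPKM in vehicle-treated DKO and 3.36 to 3.98 FPKM in rapamycin-treated Tsc2 KO kidneys. All 3 had a clear level in controls, where Gpnmb did not exceed 56 reads, so they did not share its range.

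**Figure D3:**
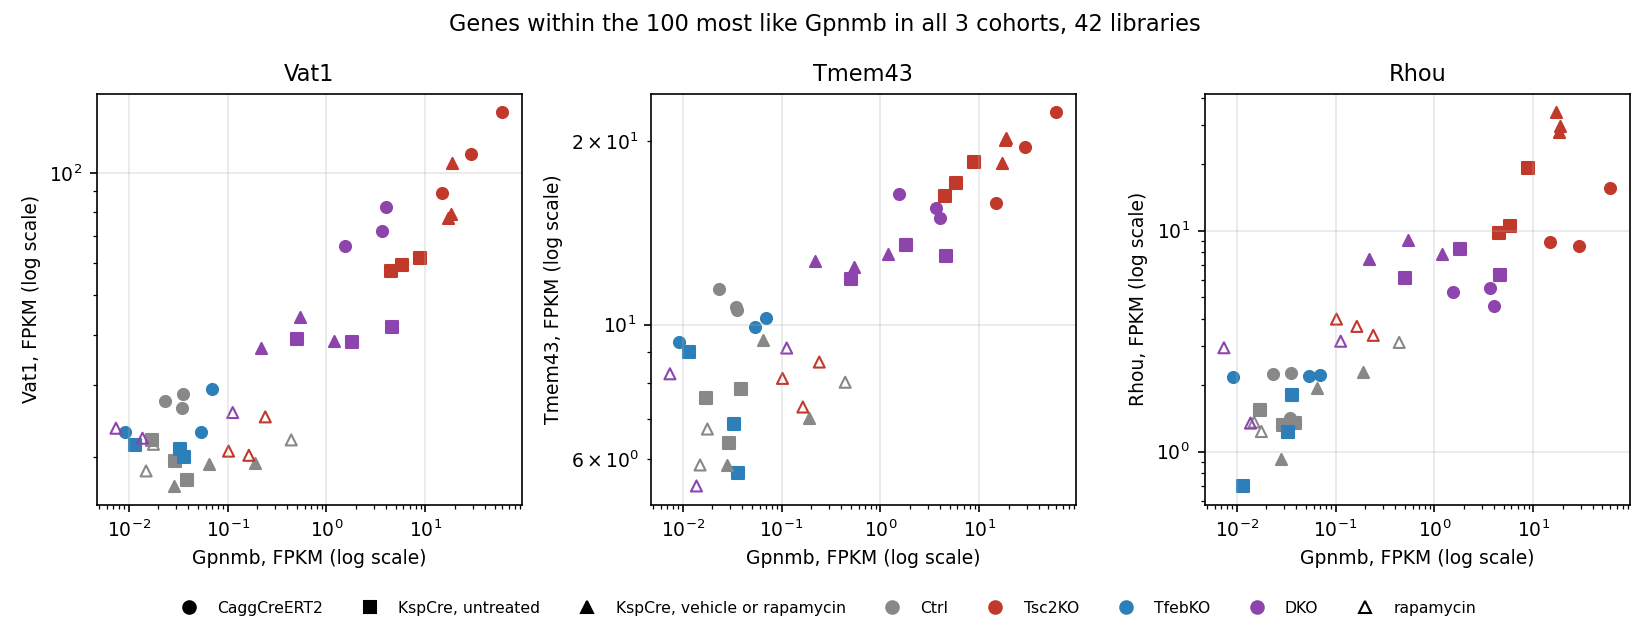
Vat1, Tmem43 and Rhou (FPKM, log axes) against Gpnmb in 42 libraries; colour is genotype, shape is cohort and open symbols are rapamycin-treated. Vat1 reached 141 FPKM in CaggCreERT2 Tsc2 KO, and DKO libraries of that cohort lie between control and Tsc2 KO.

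S100a14, a small calcium-binding protein of epithelia, also spanned a wide range. It was at 0.650 to 1.12 FPKM in CaggCreERT2 control, at 55.4, 19.2 and 16.3 FPKM in Tsc2 KO 1, 2 and 3 and at 1.48 to 1.86 FPKM in DKO kidneys. The order of the 3 Tsc2 KO libraries was that of Gpnmb (60.2, 29.1 and 14.8 FPKM). In untreated KspCre kidneys S100a14 was at 11.9, 21.6 and 9.004 FPKM in Tsc2 KO and at 11.7, 3.84 and 3.82 FPKM in DKO kidneys. This is again the order of Gpnmb, with DKO 2 and 3 nearly equal. S100a14 was picked for its likeness to Gpnmb in these libraries, so the shared order is no finding. Meltf, in contrast, was at 3.32 to 7.48 FPKM in CaggCreERT2 Tsc2 KO and 3.85 to 4.70 FPKM in DKO kidneys, where Gpnmb ranges were apart.

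Variation among libraries of the same group was followed separately, by the deviation of each library from its group mean, pooled over 42 libraries. The genes most like Gpnmb in this measure were Snx10 (a sorting nexin, r = 0.666), S100a14 (r = 0.665), Itgb4 (the integrin beta 4 subunit of epithelial cells, r = 0.653), Pqlc3 (r = 0.638) and Car13 (r = 0.636). Itgb4 stood at 4.71, 3.77 and 3.12 FPKM in CaggCreERT2 Tsc2 KO 1, 2 and 3, and at 6.02, 3.51 and 2.88 FPKM in untreated KspCre DKO 1, 2 and 3. Both groups show the order of Gpnmb, but Itgb4 was picked by this measure, so the shared order is no finding. For Vat1 this r within groups was 0.828 in the CaggCreERT2 (12 libraries), 0.0541 in the untreated KspCre (12 libraries) and 0.450 in the treated cohort (18 libraries).

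Among the MiT/TFE factors, 1 of 4 was called lower in CaggCreERT2 DKO against Tsc2 KO kidneys (3.66% of all tested genes were), the deleted Tfeb (log2 fold change -1.48, adjusted p = 0.00325), and the same in vehicle-treated kidneys (-1.07, adjusted p = 0.000667). Their median log2 fold change was -0.00 in the first of these comparisons, beside 0.01 over all genes. Under rapamycin, which lowered Gpnmb in Tsc2 KO kidneys by 6.74 on the log2 scale, Tfeb was at 5.58 to 6.09 FPKM in vehicle-treated and 3.97 to 6.62 FPKM in rapamycin-treated animals (log2 fold change -0.04, 95% interval -0.43 to 0.34, adjusted p = 0.885 by edgeR). Tfe3, which binds the same motifs, was below the FPKM minimum and lower by 0.46 (log2 fold change -0.46, adjusted p = 0.0158), and Mitf (0.45, adjusted p = 0.0458) and Tfec (0.77, adjusted p = 0.0385) had values above 0, also below that minimum, so that none of these 3 was called. Tfe3 in CaggCreERT2 kidneys stood at 4.91 to 5.56 FPKM in Tsc2 KO and 4.55 to 4.86 FPKM in DKO, with a log2 fold change of -0.18 (95% interval -0.40 to 0.04, adjusted p = 0.293).

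The folliculin and Rag genes, which set how TFEB meets mTORC1 and are themselves MiT/TFE targets, were listed as 5 genes. Of these, Rragc was called lower in CaggCreERT2 DKO (-0.57, adjusted p = 0.00451), and Rragc (-0.68) and Rragd (-0.73) in vehicle-treated DKO kidneys, beside 3.66% and 5.89% of all tested genes called lower. Rapamycin lowered Flcn (-0.78, adjusted p = 0.000227), Rragc (-0.72, adjusted p = 0.00111) and Rragd (-0.82, adjusted p = 0.00453) in Tsc2 KO kidneys, beside 8.13% of all tested genes. Rragd, the RagD GTPase, stood at 45.3 to 59.0 FPKM under vehicle and 23.7 to 34.6 FPKM under rapamycin. Under rapamycin 3 of the 5 were below 0 and 2 above. The medians of the list were -0.43 in CaggCreERT2 DKO and -0.72 under rapamycin, beside 0.01 and -0.02 over all genes.

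Of 8 genes of proteins that bind or cut GPNMB, 3 were called lower under rapamycin, beside 8.13% of all tested genes. Rapamycin lowered Adam10, the protease that releases its outer part, by 0.45 on the log2 scale (log2 fold change -0.45, adjusted p = 0.0173), together with Adam17 (-0.38) and the integrin beta 1 subunit Itgb1 (-0.37). Adam10 was also lower in vehicle-treated DKO kidneys (-0.43, adjusted p = 0.0279). The receptor Cd44 moved most of the list, from 2.15 to 4.85 FPKM under vehicle to 0.606 to 0.690 FPKM under rapamycin (-2.36, adjusted p = 0.00233), under the FPKM minimum of a call. In untreated KspCre kidneys Cd44 was at 6.47 FPKM in DKO 1 and at 0.678 and 0.554 FPKM in DKO 2 and 3, where Gpnmb had the same first and last library.

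Markers of the cell types known for GPNMB were taken list by list. Of 10 osteoclast genes, 7 were tested: the protease Ctsk (-1.18, adjusted p = 0.0303) and the proton pump subunit Atp6v0d2 (-0.98, adjusted p = 0.0131) fell from CaggCreERT2 Tsc2 KO to DKO kidneys while the phosphatase Acp5 was higher (1.23, adjusted p = 0.0343), beside 7% of all tested genes called. Under rapamycin 2 of the 7 were called, both lower, beside 8.13% of all tested genes called lower. These were Ctsk (-1.10, adjusted p = 0.00374) and Atp6v0d2 (-1.14, adjusted p = 0.000596). The median of the 7 was -1.10. Atp6v0d2 is also a gene of the kidney's intercalated cells, and it stood at 102 to 159 FPKM in vehicle-treated and 49.8 to 68.5 FPKM in rapamycin-treated Tsc2 KO kidneys. Of 8 melanocyte genes 2 were expressed enough to be tested; Tyrp1 was listed at 0 in every library, and Tyr and Dct did not exceed 0.0810 FPKM. Of the tested genes, both below the FPKM minimum, the melanosome protein gene Pmel had log2 fold changes of -0.57 in CaggCreERT2 DKO against Tsc2 KO (adjusted p = 0.631) and -0.31 under rapamycin (adjusted p = 0.660), and the channel gene Trpm1 had 1.93 (adjusted p = 0.0261) and 4.10 (adjusted p = 0.00824), opposite in sign to Gpnmb and at no more than 0.135 FPKM in any library. Mlana, the melanosome protein melan-A, too low to be tested and named here after its values were seen, was at 0.190 to 1.84 FPKM in the 9 Tsc2 KO libraries not given rapamycin and at 0 to 0.517 FPKM in the other libraries. Of 10 genes of lipid-associated macrophages, which are marked by GPNMB in other tissues, rapamycin lowered Lgals3 (galectin 3, -2.97, adjusted p = 4.97e-08), Spp1 (osteopontin, -1.71, adjusted p = 7.93e-05) and Ctsb (cathepsin B, -1.11, adjusted p = 0.000854), beside 8.13% of all tested genes called lower. Their median under rapamycin was -1.03 with 9 of 10 below 0, and in vehicle-treated DKO against Tsc2 KO kidneys it was -0.45 with 8 of 10 below 0. In CaggCreERT2 DKO against Tsc2 KO kidneys, where Gpnmb was also lower, the median of these 10 genes was -0.16 beside 0.01 over all genes, and the smallest adjusted p was 0.0715 (Lgals3, -0.96).

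Macrophage transcripts were followed as a sum, with no test of the sum. The summed level of 14 macrophage markers was 119 to 156 FPKM in CaggCreERT2 control, 196 to 245 in Tsc2 KO and 137 to 201 in DKO kidneys. In the treated cohort it was 145 to 237 FPKM in vehicle-treated and 69.5 to 119 FPKM in rapamycin-treated Tsc2 KO kidneys. Vehicle-treated DKO kidneys had 87.5 to 113 FPKM and vehicle-treated controls 68.0 to 83.5 FPKM. All 14 markers were above 0 in every library. Of the 14, rapamycin lowered 6 and raised Mertk, beside 8.13% of all tested genes called lower and 9.95% higher, with Cd68 the largest fall (-2.41, adjusted p = 1.54e-05); in CaggCreERT2 DKO kidneys Cd68 was lower (-0.90, adjusted p = 0.0499) and Mertk higher (0.62, adjusted p = 0.0402). Without treatment, KspCre kidneys had sums of 83.3 to 109 FPKM in control and 136 to 221 FPKM in Tsc2 KO, which lay wholly above. In DKO 1, 2 and 3 of that cohort the sum was 822, 91.2 and 119 FPKM, with Gpnmb at 4.60, 1.80 and 0.502 FPKM. The part of macrophages in the level of Gpnmb was not tested.

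**Figure D4:**
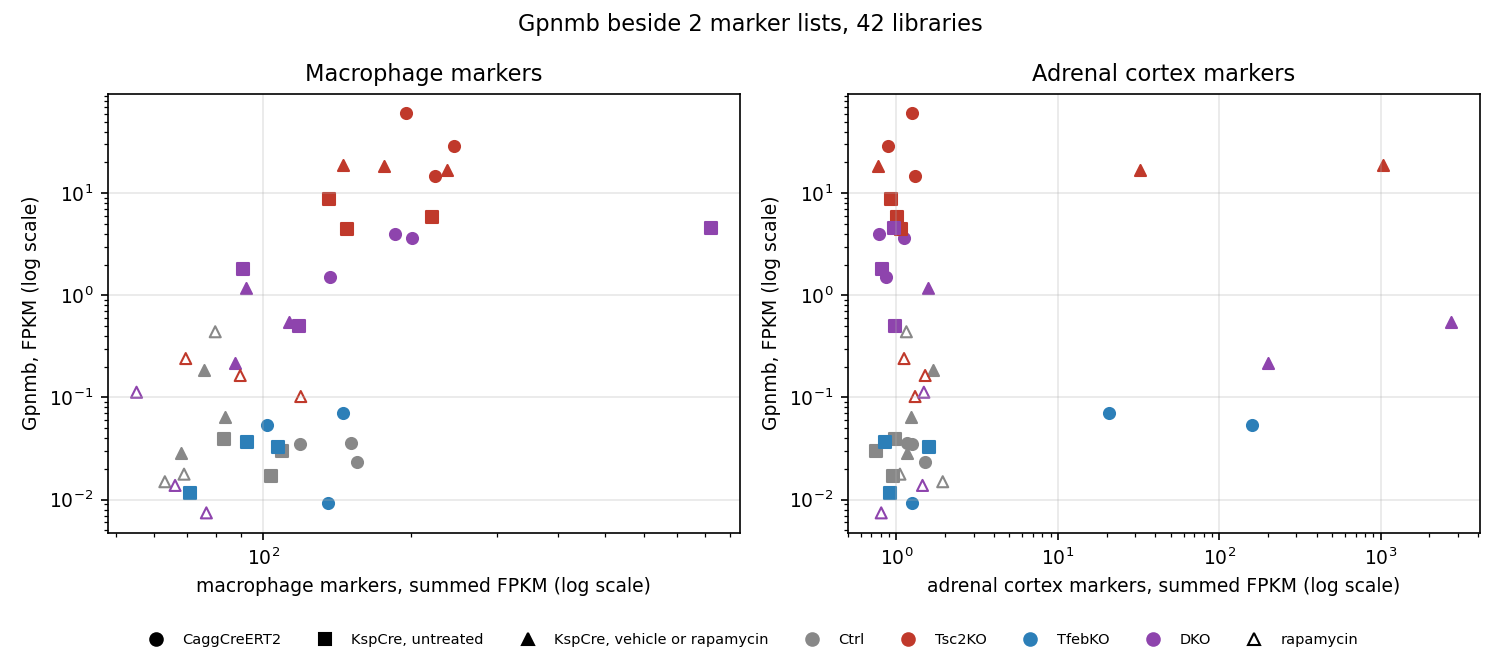
Gpnmb (FPKM, log axis) against the summed FPKM of 14 macrophage markers (left) and 7 adrenal cortex markers (right, log axes) in 42 libraries; colour is genotype, shape is cohort and open symbols are rapamycin-treated. The macrophage sum spans 55.1 to 245 FPKM in every library but KspCre DKO 1 (822), and vehicle-treated Tsc2 KO kidneys have 17.0 to 18.7 FPKM of Gpnmb at adrenal sums from 0.768 to 1034.

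Over all 96 listed genes, 12 of 87 tested were called in CaggCreERT2 DKO against Tsc2 KO kidneys (6 higher and 6 lower) and 29 of 85 under rapamycin in Tsc2 KO kidneys (8 higher and 21 lower). The corresponding shares over all tested genes were 7% and 18.1%. In untreated KspCre DKO kidneys 2 of 86 were called, Spp1 lower (-1.19, adjusted p = 0.0355) and the distal tubule gene Calb1 higher (2.06, adjusted p = 0.0355), beside 0.132% of all genes. The genes called higher under rapamycin included the endocytic receptors Cubn (2.26, adjusted p = 4.67e-07) and Lrp2 (2.17, adjusted p = 4.82e-07) of the proximal tubule.

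**Figure D5:**
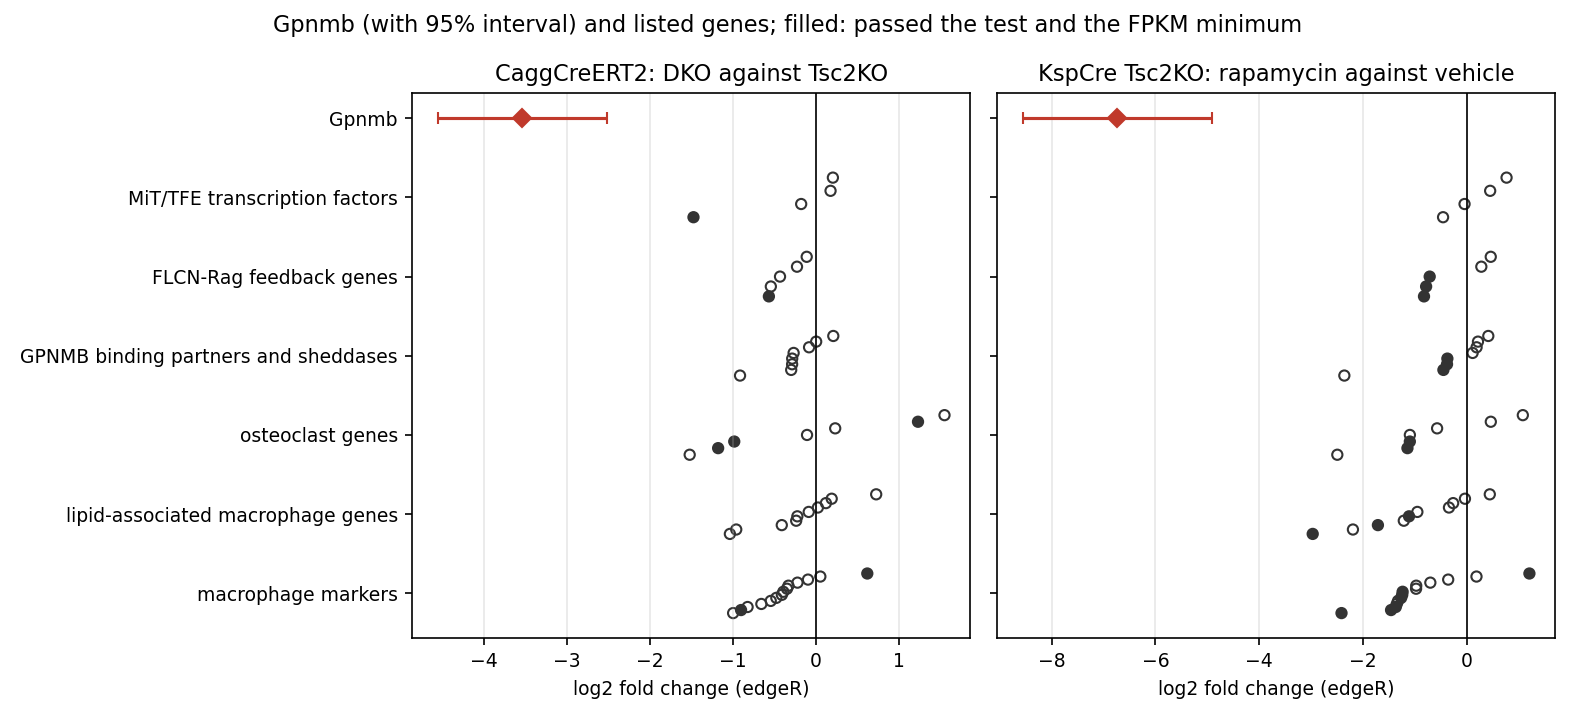
Log2 fold changes of Gpnmb (red, with its 95% interval) and of the genes of 6 lists in CaggCreERT2 DKO against Tsc2 KO (left) and in KspCre Tsc2 KO under rapamycin against vehicle (right); filled points passed an adjusted p of 0.05 and a mean of 5 FPKM. Gpnmb lies at -3.53 and -6.74; it was chosen by its level in the Tsc2 KO libraries that both contrasts use, so its place below the listed genes is no finding.

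The neighbours of Gpnmb on chromosome 6 were examined at the same scale. Upstream, 1600015I10Rik, Doxl2 and Svs1 did not exceed 0.128 FPKM in any library. Downstream, Malsu1, which encodes a mitochondrial ribosome assembly factor and starts 2866 bases after the end of Gpnmb, was at 3.64 to 8.67 FPKM over all libraries and was higher in vehicle-treated DKO than Tsc2 KO kidneys (0.54, adjusted p = 0.0173). Igf2bp3, an RNA-binding protein of fetal tissue, was at 0.389 to 1.02 FPKM in CaggCreERT2 Tsc2 KO kidneys and lower in DKO kidneys (-1.53, adjusted p = 0.0337), below the FPKM minimum. Tra2a, a splicing factor, was at 2.94 to 9.16 FPKM.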

How the data were processed

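Per the labels and the study's methods, poly-A RNA from whole kidneys was sequenced from a non-directional library, and the submitters' processing notes list STAR 2.6.1d, HISAT2 2.0.5, featureCounts 1.5.0-p3 and DESeq2 1.20.0 with mm10, without saying which step each served. The authors deposited a table of read counts and a separate table of FPKM for each of the 3 cohorts. The deposited counts are raw reads per gene, and the FPKM were computed by the authors from counts, gene length and depth. The authors' own fold changes and p-values, where present, were not used. In CaggCreERT2, counts were tied to FPKM libraries by proportionality, since 4 names differ.

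Counts were tested with edgeR 4.0.16 in R 4.3.3 (filterByExpr, TMM, quasi-likelihood F test, all groups of a cohort in 1 fit), with Benjamini-Hochberg adjustment over 16348, 16631 and 17027 genes. A call needed an adjusted p of 0.05 or lower and, for listed genes, a mean of at least 5 FPKM in 1 group compared. Tracking used Pearson's r of log2 CPM (prior count 2); the 10 leading genes per cohort, those shared among the 100 leading, and the fixed lists were named, except 1 gene that is not reported here. DESeq2 1.42.0 was an alternative. Scripts were tested on simulated data. The gene, the lists and the tests were chosen with earlier results of these data known, and the adrenal list after the values were seen.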

Additional observations from a re-analysis of the deposited data

How the results depend on the processing

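Of 190 recomputed values of the 16 tests of Gpnmb, 170 kept their direction and side of the threshold. With the library names of the count table, Gpnmb in CaggCreERT2 DKO against Tsc2 KO was -4.36 (log2, edgeR) and DKO against control 5.78, both past the threshold only under the other names. In KspCre, Tfeb KO against control was -0.013 without a filter and -0.024 by DESeq2. Without the 4 adrenal vehicle libraries (chosen after seeing the data), vehicle DKO against Tsc2 KO was -3.94 and rapamycin in DKO -4.81, neither called; with only the groups compared the latter was -3.92 (adjusted p = 0.0655). Vehicle DKO against control was 2.81 and called (adjusted p = 0.0181) without a filter. The cause was not tested.

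Leaving out 1 library at a time gave -0.034 to 0.98 (CaggCreERT2 Tfeb KO against control), -0.27 to 0.30 (KspCre Tfeb KO against control), -5.81 to -3.18 (rapamycin in DKO), -2.45 to 1.73 (rapamycin in controls), -0.48 to 3.29 (rapamycin Tsc2 KO against control) and -3.78 to 1.29 (rapamycin DKO against control). Of the 10 genes leading the tracking, the number still among the first 100 was 6 (Spearman), 5 (log2 of FPKM plus 1) and 3 (groups without Tsc2) in CaggCreERT2; 4 (Spearman), 3 (groups without Tsc2) and 0 (deviations) in KspCre; and 4 (log2 of FPKM plus 1) and 5 (deviations) in the treated cohort.

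Replicate numbers did not pair the samples (median r of same-number deviations 0.00881, -0.0400 and -0.00502 in the 3 cohorts). With the replicate block, DKO against Tsc2 KO was -3.43 in CaggCreERT2, -1.86 in KspCre and -5.01 under vehicle, and rapamycin in Tsc2 KO was -6.86; the block changed no call of Gpnmb. Fits with only the groups compared gave no value for Tfeb KO against control in either cohort, rapamycin in controls, or rapamycin DKO against control, where Gpnmb was too low. Control and Tfeb KO levels rest on 1 to 21 reads a library, apart from 1 control with 56.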
